A study of Mus musculus with 2 samples.

Results

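The cadherins and protocadherins were examined in a map of where the homeodomain transcription factor Otp (Orthopedia) sits on chromatin in the mouse paraventricular nucleus of the hypothalamus (PVN). The members are the 92 mm10 RefSeq protein-coding genes whose symbol starts with Pcdh or is Cdh plus a number, of 21883 protein-coding genes on nuclear chromosomes. They comprise 23 cadherin genes, 12 non-clustered protocadherin genes and 57 clustered protocadherin genes of the alpha, beta and gamma arrays on chromosome 18. CUT&RUN, in which an antibody guides a nuclease to its target and the released DNA is sequenced, was run on nuclei of the adult wild-type (WT) PVN. The 2 samples are 1 library with an antibody against Otp and 1 library with IgG, a control antibody with no intended target. Both are labelled as neurons of WT animals. Each group is a single library, so the values below are descriptions of 2 libraries and carry no test between samples.

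Cadherins are calcium-dependent adhesion proteins of the cell surface. Classical type I and type II cadherins bind the same or related cadherins on the neighbouring cell and are anchored to actin by catenins. Protocadherins are the largest branch of the superfamily and are prominent in the nervous system. In the clustered arrays, each alpha and gamma gene has its own first exon and promoter and is spliced to a shared set of last exons. Neurons choose among these promoters, which gives cells different surface identities, and CTCF and cohesin loop the chosen promoters to distant enhancers.

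The Otp list held 11379 regions and the IgG list 291, as called by the authors. Each region has a summit, a fold enrichment over the caller's own background and a −log10 q, where q is the p-value adjusted for many tests. A pileup, the number of tags (reads or fragments) stacked at the summit, was worked out from these for 98.3% of Otp regions and 90.0% of IgG regions. Away from peaks the caller's background came to 0.512 tags for Otp and 0.0873 tags for IgG, a ratio of 5.86. A peak list does not measure expression, so the tissue label could be set only against regions at genes that define the PVN. Of Otp, Sim1, Avp, Oxt, Crh and Trh, an Otp region stood at an end of Sim1 and of Trh, and no IgG region stood at an end of any. Over all protein-coding genes, 27.2% had an Otp region within 1 kb of an end and 0.379% an IgG region. So few marker genes near such shares cannot tell whether the tissue label holds. The Otp gene itself held 2 IgG regions and 1 Otp region in its body.

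Otp regions at the ends of family genes were few. A region was counted at a gene when its summit lay within 1 kb of either gene end, and 3 of the 92 genes had such a region (3.26%). The share over all protein-coding genes was 27.2%. Gene length changes this share, so the genes were divided into 10 classes of equal number by length. The share in the same length classes was 27.3%, which over 92 genes amounts to 25.1 genes. The 3 genes were Pcdh17, Pcdh10 and Pcdhgc3, all protocadherins, and each carried 1 region. None of the 23 cadherin genes had one, against 6.79 by length class. This absence rests on the exact limit, since the summit nearest to a cadherin end lay 1001 bp away, at Cdh16. Of the 35 non-clustered genes of both kinds, 2 had a region at an end (5.71%, 95% exact interval 0.700 to 19.2%), against 10.4 by length class. The interval treats genes as independent draws and covers counting error only.

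**Figure D1:**
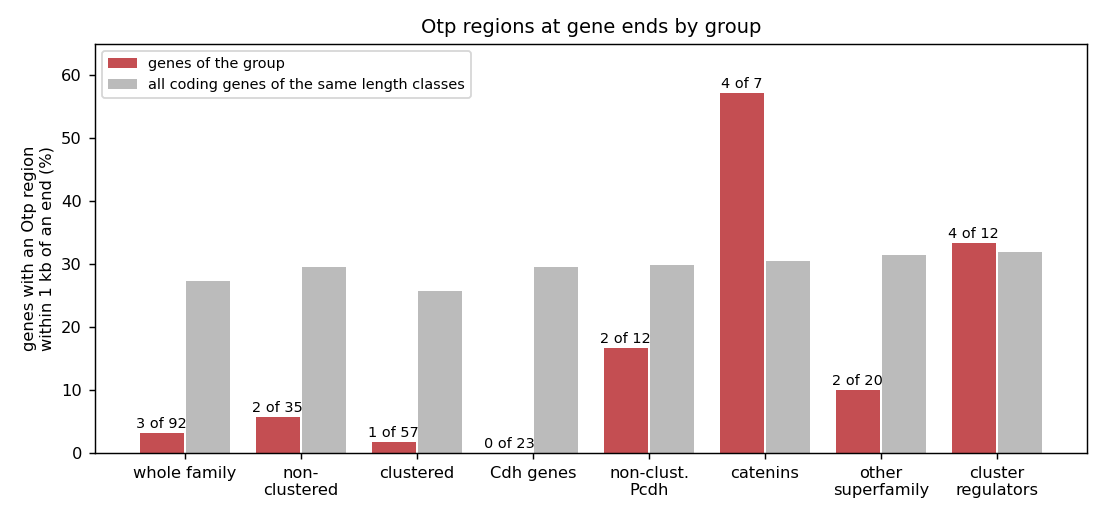
Percent of genes with an Otp region within 1 kb of an end, for groups of family genes and 3 related gene lists (red bars, with counts above), and for all coding genes of the same length classes (grey bars). The bar of the whole family stands at 3.26% beside 27.3% for its length classes, and that of the catenins at 57.1% beside 30.5%.

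The IgG list held no region at an end of a family gene and none inside one. Over all protein-coding genes, 0.379% had an IgG region at an end and 0.315% had one inside, so a count of 0 among 92 genes is close to what the control list gives anywhere. None of the 20 Otp regions of the family overlapped an IgG region. Of all 11354 nuclear Otp regions, 2.29% did, so a count of 0 among 20 is close to that share.

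Some family genes have their transcription start well inside the span that the gene table gives them. RefSeq promoter windows, each with 250 bases before and 50 after a start, were matched by gene ID for 22 of the 92 genes, none of them a clustered protocadherin. Genes without a window are in no count at listed starts. Counted within 1 kb of a listed start, 4 of the 22 genes had an Otp region (18.2%): Pcdh17, Pcdh10, Pcdh9 and Cdh18. Of the 17491 protein-coding genes with a window, 29.5% had one. Pcdh9 and Cdh18 were missed at the gene ends because their listed starts lie inside the annotated span. The change in counting was made after the values were seen.

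The sequences that carry these results are the promoters of the delta-2 protocadherins and of the other genes with a region at a listed start. The delta-2 branch (Pcdh8, Pcdh10, Pcdh17, Pcdh18 and Pcdh19) is shown whole because it holds 2 of the 3 family genes with a region at an end. Its 2 of 5 is close to the 1.58 that genes of the same length classes give. Each line gives the 250 bases before the start from RefSeq on GRCm38.p6, the assembly that mm10 denotes, read 5′ to 3′ on the strand of the gene. Capitals mark CCAAT on either strand (ATTGG is its reverse complement), letters known as the CCAAT box and bound by the factor NF-Y. The letters were chosen after the sequences had been read.
Pcdh17, chr14:84443313-84443562, forward strand: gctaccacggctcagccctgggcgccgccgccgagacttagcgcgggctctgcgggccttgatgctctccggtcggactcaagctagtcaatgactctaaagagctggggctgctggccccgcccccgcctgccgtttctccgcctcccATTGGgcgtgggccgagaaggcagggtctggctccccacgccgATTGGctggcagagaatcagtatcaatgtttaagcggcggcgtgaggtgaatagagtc
Pcdh10, chr3:45378148-45378397, forward strand: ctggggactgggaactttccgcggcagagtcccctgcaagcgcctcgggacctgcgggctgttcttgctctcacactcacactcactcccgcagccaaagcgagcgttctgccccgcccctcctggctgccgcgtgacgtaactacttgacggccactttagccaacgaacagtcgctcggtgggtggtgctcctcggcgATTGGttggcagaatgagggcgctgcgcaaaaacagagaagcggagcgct
Pcdh8, chr14:79771313-79771562, reverse strand: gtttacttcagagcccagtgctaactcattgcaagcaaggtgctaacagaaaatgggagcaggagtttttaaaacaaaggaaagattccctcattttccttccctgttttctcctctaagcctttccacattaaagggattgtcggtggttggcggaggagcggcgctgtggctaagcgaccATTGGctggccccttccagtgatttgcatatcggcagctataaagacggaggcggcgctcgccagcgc
Pcdh18, chr3:49757317-49757566, reverse strand: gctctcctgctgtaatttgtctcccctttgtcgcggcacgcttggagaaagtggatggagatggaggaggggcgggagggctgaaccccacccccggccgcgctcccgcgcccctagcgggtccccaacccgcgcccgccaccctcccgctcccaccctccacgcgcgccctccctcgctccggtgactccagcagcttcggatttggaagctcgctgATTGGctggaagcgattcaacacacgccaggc
Pcdh19, chrX:133688994-133689243, reverse strand: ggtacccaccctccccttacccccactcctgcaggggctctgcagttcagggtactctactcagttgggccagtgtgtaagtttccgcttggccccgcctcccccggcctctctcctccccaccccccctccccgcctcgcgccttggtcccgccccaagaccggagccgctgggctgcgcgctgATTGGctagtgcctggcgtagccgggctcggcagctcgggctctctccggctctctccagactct

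All 5 delta-2 promoters held these letters, and in all 5 a copy lay in the last 100 bases before the start in the ATTGG orientation. The copy nearest to the start began 58 bases before it in Pcdh17, 50 in Pcdh10, 68 in Pcdh8, 32 in Pcdh18 and 65 in Pcdh19. Pcdh17 had a further copy beginning 101 bases before its start. The letters stood both in promoters with a region and in promoters without. Over the 21262 promoter windows of protein-coding genes, 20.8% held CCAAT or ATTGG in the same 100 bases, and 32.7% of those with an Otp region within 1 kb did. The 20 family windows outside the delta-2 branch held them in 8 (40.0%), and these include Pcdh9 and Cdh18, whose promoters are also shown. Windows are not separate promoters, since the 25 family windows come from 22 genes. The windows of Pcdh9 overlap, so the same copy counts in each.

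The promoters of Pcdh9 and Cdh18 are shown because their regions sit at listed starts that the gene ends miss. Both held the letters once, as CCAAT.
Pcdh9, chr14:93890680-93890929, reverse strand: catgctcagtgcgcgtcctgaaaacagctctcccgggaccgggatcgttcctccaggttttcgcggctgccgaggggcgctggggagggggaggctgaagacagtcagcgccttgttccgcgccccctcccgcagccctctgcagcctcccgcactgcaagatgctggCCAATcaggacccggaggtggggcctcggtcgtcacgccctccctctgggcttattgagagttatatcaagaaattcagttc
Cdh18, chr15:23036213-23036462, forward strand: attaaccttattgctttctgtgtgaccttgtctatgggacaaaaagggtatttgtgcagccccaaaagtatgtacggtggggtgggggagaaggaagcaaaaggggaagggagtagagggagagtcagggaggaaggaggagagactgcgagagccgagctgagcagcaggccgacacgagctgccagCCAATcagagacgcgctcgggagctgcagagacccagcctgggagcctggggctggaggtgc

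In Pcdh9 the copy began 82 bases before the start and in Cdh18 62 bases before it. The Otp regions at Pcdh17 (147 bp) and Pcdh9 (214 bp) lay wholly inside the 300-base windows. Of the regions at Pcdh10 and Cdh18, the windows held 135 of 141 bp and 156 of 159 bp. Within these stretches, Pcdh17 had 11 CpG dinucleotides, Pcdh10 had 11, Pcdh9 had 18 and Cdh18 had 11. All 4 stretches held CCAAT on either strand, with 2 copies in Pcdh17, 2 in Pcdh10, 1 in Pcdh9 and 1 in Cdh18. The sequence printed for Pcdh10 ends before the start and marks only 1 of its 2 copies. Over all promoter windows, taken whole, 50.1% of those with an Otp region within 1 kb held these letters, against 33.6% of those without. The letters were chosen after the printed sequences had been read, so the 4 stretches cannot test how frequent they are. Neither TAATTA, the core that many homeodomains recognise, nor the shorter TAAT (both strands searched, TAATTA contains TAAT and its reverse complement) occurred in any of the 4. Over all promoter windows, 2.26% of those with an Otp region within 1 kb held TAATTA, against 5.41% of those without. TAAT on either strand stood in 40.3% of those with a region and 56.2% of those without. However, these sets differ in CpG content (medians of 23 and 7 CpG). Among windows with 14 or more CpG, the order was the other way, with TAATTA in 1.53% of the 4973 with a region and 1.31% of the 5424 without, and TAAT on either strand in 35.7% and 28.6%. Among windows with fewer CpG, TAATTA stood in 6.03% of the 962 with a region and 7.65% of the 9903 without, and TAAT in 64.1% and 71.3%. Those below 14 still differed in CpG content, with medians of 10 CpG with a region and 3 without. The comparison within CpG classes was made after the values were seen.

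Among the delta-2 protocadherins, Pcdh17, which takes part in presynaptic assembly, had the strongest region at a gene end. It covered positions 84443408 to 84443554 of chromosome 14, with the summit 79 bp upstream of the start. The pileup was 23 tags (95% Poisson interval 14.6 to 34.5) where the local background was 1.54 tags, and the fold enrichment was 9.46. By −log10 q (15.7) it ranked 2024 of the 11379 Otp regions. The lncRNA gene Gm32498 has an end 80 bp from the same summit, so the region cannot be given to either gene.

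Pcdh10, which acts in the elimination of synapses in response to activity, had a region at positions 45378313 to 45378453 of chromosome 3. Its summit lay 8 bp inside the gene from the start. The pileup was 16 tags (9.15 to 26.0), the fold enrichment 6.88 and the −log10 q 8.51, rank 5015. Here too a lncRNA gene, 2610316D01Rik, has an end near by, 146 bp from the summit. The nearest other protein-coding end was over 1 Mb away, at Pabpc4l (1062448 bp).

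No Otp region lay near the other 3 delta-2 genes. The nearest summit was 42622 bp from an end of Pcdh8, whose rat counterpart is induced by neuronal activity. It was 370060 bp from an end of Pcdh19, an X-linked gene whose human counterpart is mutated in an epilepsy, and 649301 bp from an end of Pcdh18. Their promoter windows held 14, 18 and 23 CpG dinucleotides (in the order Pcdh8, Pcdh19, Pcdh18), beside 26 in Pcdh17 and 24 in Pcdh10.

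Of the delta-1 protocadherins, only Pcdh7 and Pcdh9 had a promoter window. Pcdh9 had a region at a start and Pcdh7 did not. The Pcdh9 region was the strongest at or inside any family gene. It covered positions 93890709 to 93890922 of chromosome 14, 64 bp upstream of the nearer of the 2 listed starts and 2091 bp inside the gene span. The pileup was 25 tags (16.2 to 36.9), the fold enrichment 10.2 and the −log10 q 17.97, rank 1605. Its sequence, shown above, carries 18 CpG within the region. Pcdh1 had a region outside the gene, 3099 bp from an end (13 tags, fold enrichment 5.73). Pcdh7 and Pcdh11x had no summit within 1 Mb of an end, the nearest being 1909731 bp and 1486914 bp away.

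Among the other non-clustered protocadherins, Pcdh15, which joins Cdh23 in the tip links of inner ear hair cells, spans 1553.56 kb and held 2 regions. The first lay 1036 bp inside its lower end, just past the 1 kb limit, with 12 tags (6.20 to 20.96) at a fold enrichment of 6.52. The second lay 379704 bp from the nearer end with 8 tags. Neither was near its listed start. Pcdh12, a protocadherin of blood vessel endothelium, and Pcdh20 had none. The summits within the limit lay 8, 37 and 79 bp from an end. The nearest beyond it lay at 1001 bp in Cdh16 and 1036 bp in Pcdh15, so a slightly wider window would count both.

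**Figure D2:**
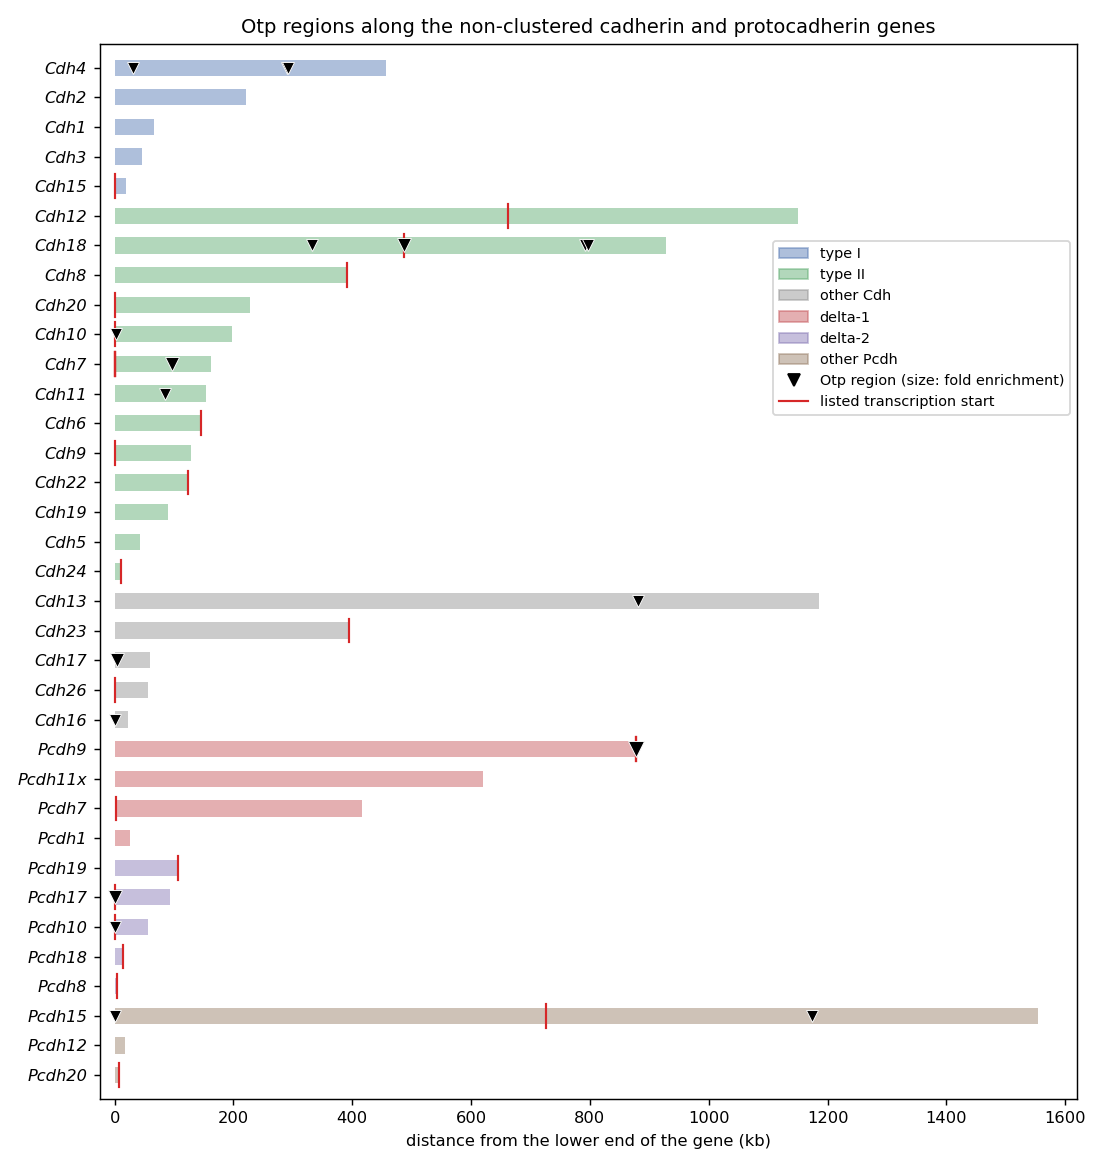
The 35 non-clustered genes drawn to scale by distance from their lower end (kb), coloured by branch, with each Otp region as a triangle sized by fold enrichment and each start of the promoter table as a red line. Triangles meet red lines at Pcdh17, Pcdh10, Pcdh9 and Cdh18, and most other triangles lie inside long genes.

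The type II cadherins, many of which mark particular neuronal circuits, had no region at an end in any of 13 genes (3.69 by length class). Inside these genes lay 7 regions, in 4 of the 13, against 5.53 genes by length class. The density of regions was 1.86 per Mb against 3.09. Density falls with length, and coding genes outside the family of 600 kb or more held 1.87 per Mb. Cdh12 and Cdh18 are that long. Cdh18 held 4 of the 7 regions along its 928.594 kb. The strongest covered positions 23036357 to 23036515 of chromosome 15, with its summit 19 bp upstream of the listed start and 441047 bp from the nearer gene end. Its pileup was 13 tags (6.92 to 22.2) with a fold enrichment of 7.13. The other 3 had 8 or 9 tags and lay 156080 bp or more from that start. The Cdh18 region at the start thus had the highest pileup of the gene, though its interval meets theirs.

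Cdh7 had a region 94933 bp past the last of its 3 listed starts, with 12 tags (6.20 to 20.96) at a fold enrichment of 8.60. Cdh10 had one 1262 bp downstream of its start, with 15 tags (8.40 to 24.7) at a fold enrichment of 6.84, and the lncRNA gene C030047K22Rik has an end 2633 bp from that summit. Cdh11, known from bone-forming cells and also present in brain, had one of 9 tags in its body. Cdh5, Cdh6, Cdh8, Cdh9, Cdh12, Cdh19, Cdh20, Cdh22 and Cdh24 had none in their body or at an end. Cdh5 is the cadherin of vascular endothelium. Cdh12, with 1149.54 kb, is the longest gene of the family in which no region was found.

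Of the 5 classical type I cadherins, Cdh4 (R-cadherin) held 3 regions inside and the others held none, so 1 of 5 had any, against 1.71 by length class. The density inside these genes was 3.71 per Mb against 3.47. A pair of the Cdh4 regions, with 11 and 8 tags, had summits 175 bp apart, and the third, 30989 bp from an end, had 9 tags. Cdh2 (N-cadherin), the main classical cadherin of neurons, had no region within 1 kb of an end, none inside, and the nearest summit was 376991 bp away. Cdh1 (E-cadherin of epithelia), Cdh3 (P-cadherin) and Cdh15 (M-cadherin of muscle) also had none.

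The 5 remaining cadherins held 3 regions in 3 genes, against 1.71 genes by length class, and none at an end. The density inside them was 1.75 per Mb against 3.23. Most of that length is Cdh13 (1184.91 kb), and coding genes outside the family of 600 kb or more held 1.87 per Mb. Cdh13, a cadherin tethered to the membrane by a lipid anchor, had 1 region of 12 tags 303900 bp from an end. Cdh17, a cadherin of intestine and liver, had 1 of 11 tags (5.49 to 19.7) 4091 bp inside, with a fold enrichment of 7.76. Cdh16, a kidney cadherin, had the weakest of the 3, with a fold enrichment of 4.91 and its summit 1001 bp from an end. No pileup could be worked out for it. Cdh23 and Cdh26 had none.

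The clustered arrays span 911.589 kb of chromosome 18, from 36930285 to 37841873, and held 5 Otp regions, or 5.48 per Mb. Chromosome 18 as a whole had 4.14 per Mb between its outermost summits. Only 2 of the 5 lay inside cluster genes. The other 3 lay between the arrays, and these included the 2 strongest. The locus held no IgG region.

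The strongest region of the locus lay between the alpha and beta arrays, at positions 37218216 to 37218474. Its pileup was 36 tags (25.2 to 49.8), its fold enrichment 13.9 and its −log10 q 30.9. It stood 29386 bp past the last alpha gene end, and a second, weaker region of 13 tags (6.92 to 22.2) and a fold enrichment of 5.29 stood beside it, 29150 bp past that end. The nearest end of a protein-coding gene outside the family was over 240 kb away (244481 bp). It belongs to Gm38667 and lies within the span of the alpha array. The distance is to a gene end only. As background, enhancers of the alpha array are known between its last exons and downstream of them, but their positions were not used here, and no overlap with them was tested. The Poisson intervals of these 2 regions do not meet.

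Inside the alpha array, 1 region of 13 tags (6.92 to 22.2) with a fold enrichment of 7.29 covered positions 37178445 to 37178684. All 14 alpha genes overlap there, since they share their last exons, so this single region counts in each of them. It lay 9131 bp before the common end and past the lower ends of all 14. The array is transcribed towards higher positions, which is general knowledge and not in the gene table, and no lower end of an alpha gene had a region within 1 kb. None of the 22 beta genes, which are short and have no shared exons, had a region at an end or inside (4.43 at an end by length class). The nearest summits were 46715 to 205631 bp from their ends.

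In the gamma array, the region at Pcdhgc3 lay at positions 37806272 to 37806424 with its summit 37 bp outside the lower end of the gene. Pcdhgc3, Pcdhgc4 and Pcdhgc5 are the C-type genes at the far side of the array, which differ from the variable genes in being used more uniformly across neurons. The pileup was 10 tags (4.80 to 18.4), with a fold enrichment of 5.80 and a −log10 q of 4.98, rank 8600. The same region lies inside the 18 gamma genes that start before it. Pcdhgc4, needed for the survival of neurons, and Pcdhgc5 had none at their lower ends, nor did the 18 variable gamma genes. The last region of the locus, between the beta and gamma arrays, had 17 tags (9.90 to 27.2) and a fold enrichment of 11.0. It lay 81 bp from an end of Taf7, a general transcription factor gene, and 17490 bp before the first gamma gene.

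**Figure D3:**
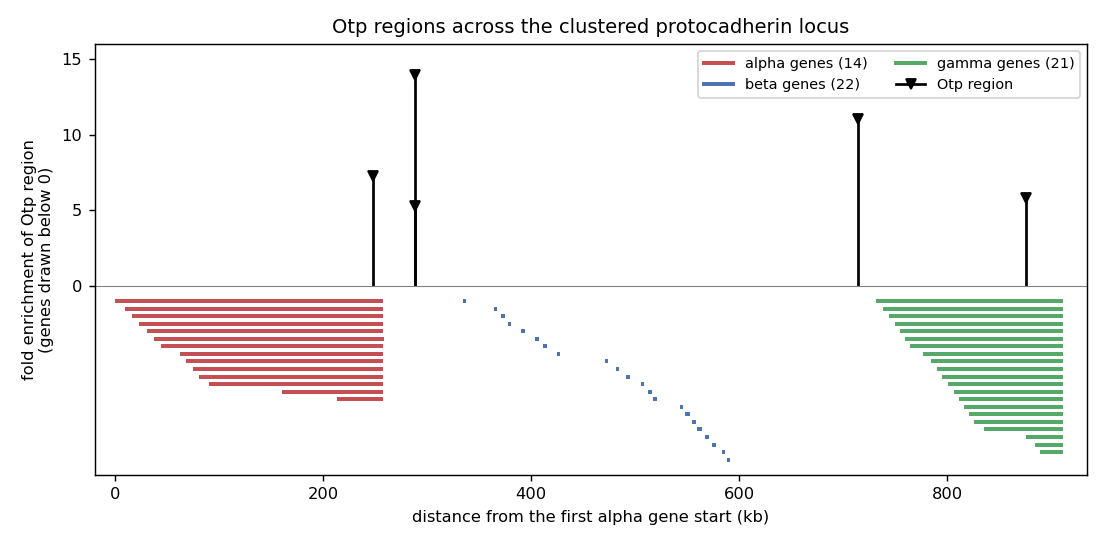
Otp regions across the clustered protocadherin locus, by distance from the first alpha gene start (kb), with fold enrichment as height. Genes are drawn below 0 as bars for alpha (red), beta (blue) and gamma (green), and the tallest region, 13.9-fold, stands between the alpha and beta arrays.

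Inside the family genes, 19 distinct regions lay in 10.592 Mb of sequence when overlapping genes were merged, or 1.79 per Mb. Genes of the same length classes held 3.34 per Mb, a value in which a region under overlapping genes counts once for each gene. By gene, 43 of the 92 had a region inside (46.7%), against 18.9% of all protein-coding genes and 31.1% in the same length classes. The count of 43 rests on overlap, since 32 of these are alpha or gamma genes that share 2 regions. Without the clustered genes, 11 of 35 had a region inside (31.4%), against 35.8% by length class, and the density was 1.69 per Mb against 3.21.

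Very long genes make up much of this length. The 10 family genes of at least 300 kb held 11 regions in 7.98 Mb (1.38 per Mb), and 5 of the 10 had any. The 546 other protein-coding genes of that size held 2.45 per Mb, and 65.9% had at least 1. These sets differ in size, with a median length of 749.76 kb in the family and 449.866 kb in the others, and density falls with length. At 600 kb or more, 6 family genes held 8 regions (1.27 per Mb) and 146 others held 1.87 per Mb. Between 300 and 600 kb, 4 family genes held 3 regions (1.81 per Mb) and 400 others held 2.97 per Mb. At an end, none of the 10 had a region, against 24.7% of the 546. These comparisons were added after the data were seen.

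The regions were of modest strength. Over the 20 distinct regions at or inside family genes, the median fold enrichment was 6.49 (range 4.83 to 10.2) and the median pileup 11 tags (8 to 25, in the 19 with a pileup). All nuclear Otp regions had medians of 6.97 and 13 tags. The 17 family regions away from gene ends had a median fold enrichment of 6.45, beside 6.505 for the 2901 Otp regions inside coding genes and away from ends. A −log10 q of at least 10 was reached by 2 of the 20, those at Pcdh9 and Pcdh17, and by 34.4% of all nuclear Otp regions. Of the 17 away from gene ends Pcdh9 alone reached it (5.88%), beside 23.2% of the 2901, and of the 3 at ends Pcdh17 alone did, beside 45.7% of the 5525 Otp regions at coding gene ends.

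**Figure D4:**
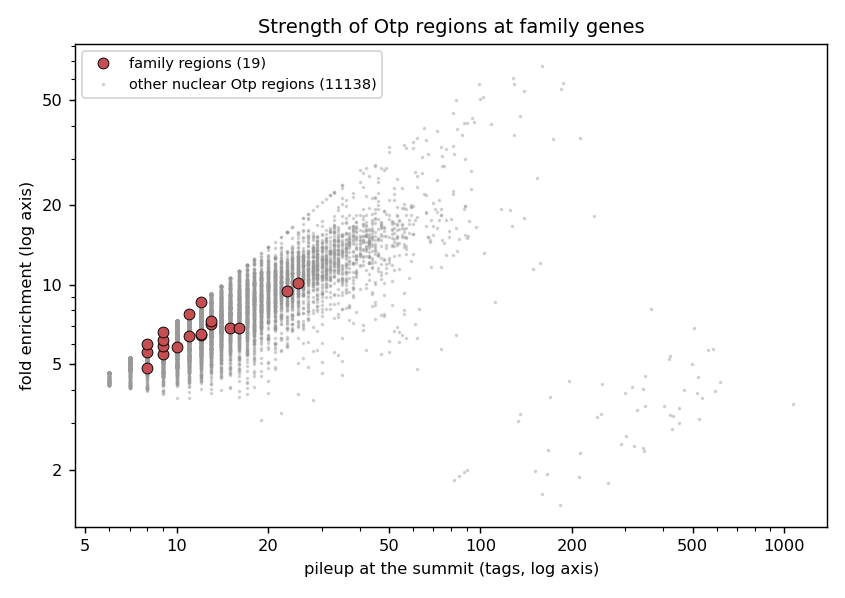
Fold enrichment against pileup (both log axes) for the 19 family regions with a pileup (red) and all other nuclear Otp regions with a pileup (grey). The 2 highest red points, Pcdh9 with 25 tags and Pcdh17 with 23 tags, lie inside the grey cloud.

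The control library was too shallow to show most of these regions. Divided by the 5.86-fold ratio of the backgrounds, the pileups of the family correspond to 1.36 to 4.26 IgG tags, and the weakest IgG region with a pileup had 4. Of the 19 family regions with a pileup, Pcdh9 alone passed that value, at 4.26, and Pcdh17 came to 3.92. Multiplied instead by 0.320, the median pileup ratio (IgG over Otp) where the lists overlap, Pcdh9 came to 8.00, Pcdh17 to 7.36 and Pcdh10 to 5.12, and 6 of the 19 reached 4. That ratio comes from 233 pairs that were all called in IgG, with no family region among them. It can therefore run too high for regions that the IgG list did not call. The strong region between the alpha and beta arrays came to 6.14 and 11.5 IgG tags by these scalings, with no IgG region over it. For most family regions a difference from IgG was not detectable at this depth.

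The CpG content of the promoters was set beside these counts. Of all protein-coding genes with a window, those with an Otp region at a start had a median of 23 CpG in 300 bases, and those without had 8, with the richest window taken where a gene had several. Where the window held 15 or more, 49.5% of genes had a region, and below that 9.52% did. All protein-coding genes with a window had a median of 15 CpG, and the 22 family genes had a median of 13. Of the 10 with at least 15 CpG, 3 had a region, against 4.92 by CpG class. Of the 12 with fewer, Cdh18 alone had one, against 1.64. Cdh22 and Cdh24, with 38 and 30 CpG, had none. In all, 4 of the 22 had a region at a start, against 6.56 by CpG class (29.8%, beside 29.5% of all genes with a window). At gene ends, 2 of the same 22 genes had a region, against 6.32 by length class. No window of chromosome 18 was used here, so its 60 family genes, among them Cdh2, Pcdh1 and Pcdh12, and the rest of its 510 coding genes are in none of the values at listed starts. The part of CpG content in the low counts was not tested.

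**Figure D5:**
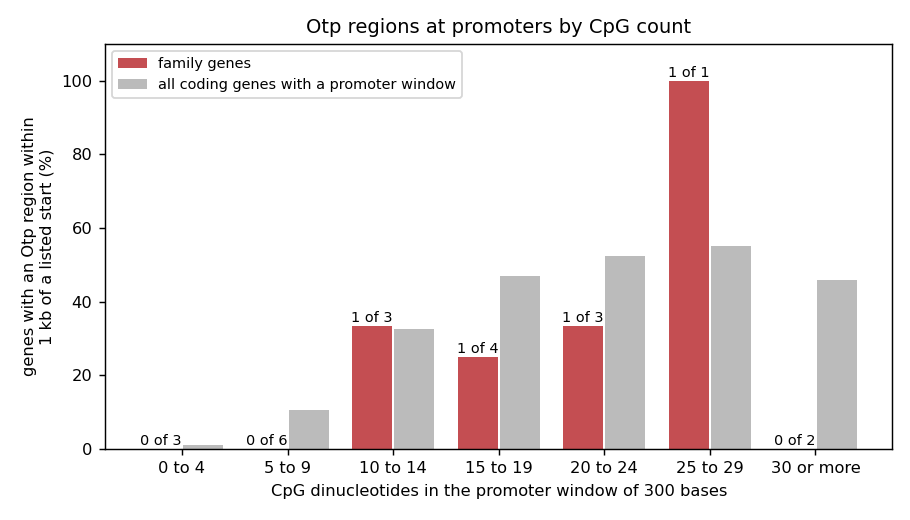
Percent of genes with an Otp region within 1 kb of a listed start, by CpG count of the 300-base promoter window, for the 22 family genes (red, with counts) and all 17491 coding genes with a window (grey). The grey bars reach 45.8% or more from 15 CpG upwards, where 3 of 10 family genes had a region.

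Partners and relatives of the family gave mixed counts. The catenins, which connect classical cadherins to actin and carry beta-catenin signalling, had such a region in 4 of 7 genes, against 2.14 by length class. Jup (plakoglobin) had 42 tags and a fold enrichment of 15.4, and its region overlapped an IgG region. Ctnna2, the alpha-catenin of neurons, had 28 tags and 13.0, Ctnna3 had 25 tags and 12.5, and Ctnnb1 (beta-catenin) had 14 tags and 6.06, all without IgG overlap. Ctnna1, Ctnnd1 and Ctnnd2 had none at an end.

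Of 20 other members of the cadherin superfamily, 2 had a region at an end, against 6.29 by length class. Celsr3, an atypical cadherin of axon guidance, had 20 tags with a fold enrichment of 7.33, and Clstn3 (calsyntenin) had 17 tags and 7.41. The Fat and Dchs genes, the desmosomal Dsg2 and Dsc2, and Ret had none. Of the 12 genes whose products organise the clustered arrays, 4 had one, against 3.84. These were Ctcf with 2 regions at an end, the stronger of 12 tags, and the cohesin genes Smc1a (10 tags), Smc3 (21 tags) and Stag2 (10 tags).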

How the data were processed

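Each sample has 1 narrowPeak list made by the authors, called per sample. The tools named in the submitters' processing notes are Bowtie2, MACS2, Picard, SAMtools and Trimmomatic, and the build is mm10. No source used here gives versions, settings or whether a control library entered the calling. The deposited fold enrichment (a ratio over the caller's background), −log10 p, −log10 q and summit offset are the authors' values. The deposited display score repeats the −log10 q and was not used. The lists give no read numbers, which leaves total depth unknown.

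Pileups were solved from the deposited fold and −log10 p, with fold taken as (pileup + 1) / (background + 1) and p as a Poisson tail. A whole number was accepted if it matched within 0.001 and the next missed by over 0.005. The background of a library is the lowest value that 3 or more regions have in common. Pileup intervals are 95% Poisson intervals and cover counting error only. The calculation and the counting at genes were tested on simulated data.

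Gene spans came from an NCBI RefSeq table of GRCm38.p6 without strand or exons, and starts and promoter sequences from a RefSeq promoter table of the same build. Mitochondrial regions were left out. Length and CpG classes give the share of all coding genes of like length or CpG count, with no test. Every family gene with an Otp region at an end was named, as were the 10 genes with the most regions inside and the longest genes without one at an end. Members, branches and related lists were chosen with earlier results of these data known. Python 3.11.15, numpy 2.4.6, scipy 1.17.1, pandas 2.3.3 and matplotlib 3.10.9 were used. Stricter thresholds, other windows, removal of regions shared with IgG, assignment to the nearest gene and finer classes were tried.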

Additional observations from a re-analysis of the deposited data

How the results depend on the processing

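Of 47 values under alternatives, 33 stayed within 1.5 times the reported count or within the interval of the reported density, and 14 moved. A −log10 q of at least 5 left 12 regions inside family genes. A −log10 q of at least 10 left 1 family gene with a region at an end (1 non-clustered gene and 1 region, Pcdh17), against 12.02 by length class for the family and 4.97 for the non-clustered genes. It also left 1 region inside (Pcdh9, 0.0944 per Mb against 0.768 by length class), 2 regions in the clustered locus and 2 genes with a region at a listed start. Within 5 kb of an end, 9 family genes had a region (8 of them non-clustered, 9 regions), against 31.4 by length class for the family. With the starts of the promoter table added, a change made after seeing the data, the counts were 5 genes, 4 of them non-clustered, and 5 regions. In every one of these settings that has a length-class value, and with 500 bp, 20 length classes, the nearest gene only, a fold enrichment of at least 5 or no regions shared with IgG, the family's gene-end count lay below it. No Otp region of the family overlapped an IgG region under any overlap rule or threshold tried. At the reported setting, 2.29% of all nuclear Otp regions did. The clustered genes share ends and regions, so their counts are not independent. The shallow IgG library limits any comparison at few tags. No paired analysis was possible because there is a single library of each kind. For the same reason, leaving out a library was not possible.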

Other observations

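Counting at listed starts in place of gene ends changed which genes had a region beyond this family. Of the 17491 protein-coding genes with a promoter window, 4651 had an Otp region both at an end and at a listed start. A further 512 had one at a listed start and none at an end, which is 9.92% of the genes with a region at a start, and 272 had one at an end and none at a start. In the family, 2 genes had both, 2 had a region at a start and none at an end, and 0 had the opposite.

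CCAAT on either strand in the 250 bases before the start was present in 35.4% of all promoter windows, in 47.6% of those with an Otp region within 1 kb and in 30.6% of those without. Among windows with 14 or more CpG it was present in 33.8%. Over whole 300-base windows with 14 or more CpG, it was present in 48.8% of those with a region and 23.99% of those without. The 25 family windows held it in 15 (60.0%), the 5 delta-2 windows included. Outside the delta-2 branch, 10 of 20 family windows held it, those of Pcdh9 and Cdh18 among them. The letters were chosen after the sequences shown above had been read, and those promoters are part of the family count. The family share therefore cannot test whether the letters are more frequent in this family.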
